A study of Mus musculus with 15 samples.

Results

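The nuclear-encoded respiratory chain genes are the genes of the cell nucleus whose proteins form, or help to assemble, the electron transport chain and the ATP synthase of the mitochondrial inner membrane. They were taken from the deposited expression table by name: every protein-coding gene whose symbol begins with Nduf (complex I), is Sdha, Sdhb, Sdhc or Sdhd (complex II), or begins with Uqcr (complex III), Cox and a digit (complex IV) or Atp5 (complex V). This gave 101 of the 53023 genes in the table: 46 of complex I, 4 of complex II, 8 of complex III, 27 of complex IV and 16 of complex V. The naming rule also took in 8 assembly factors of complex I, 9 of complex IV and Atp5s, which is not a subunit of the ATP synthase, and it left out some true subunits with other names, such as Cyc1 of complex III.

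The study asked what happens to mouse embryos when actin filaments in the nucleus are disturbed. Each library was made from a pool of 5 ICR embryos, fertilised in vitro, grown in culture and collected at the 2-cell stage 32 hours after insemination, and injected embryos received mRNA 2 hours after insemination. The reagents were mRNAs for nuclear-targeted, HA-tagged actin, either wild type (actinWT-HA-NLS) or the mutant R62D (actinR62D-HA-NLS), which does not polymerise, so the effect rests on a transient overexpression on top of the embryo's own actin. For the 6 libraries of the table, 2 in each of 3 pairs, the sample titles and the annotated injection contradict each other. Pair A (libraries A1 and A2) bears the title Wt, but its annotation says non-injected. Pair B (B1 and B2) bears the title R62D, but its annotation names actinWT-HA-NLS. Pair C (C1 and C2) bears the title non-injected control, but its annotation names actinR62D-HA-NLS. The pairs are the same under either reading, so every comparison is between pairs and is given with both readings. The other 9 libraries of the series were not analysed here.

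As background, complex I (NADH dehydrogenase) and complex II (succinate dehydrogenase) pass electrons to ubiquinone, complex III passes them on to cytochrome c, and complex IV (cytochrome c oxidase) hands them to oxygen. Complexes I, III and IV pump protons, and complex V (ATP synthase) uses the proton gradient to make ATP. Complex II is built from nuclear genes alone, while the others also hold subunits encoded by mitochondrial DNA. Several complex IV subunits and the membrane-ring subunit c of complex V have alternative forms encoded by separate genes, some of them enriched in muscle, lung or testis. The early cleavage embryo lives on mitochondria inherited from the oocyte and uses pyruvate and oxidative metabolism for its energy.

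The 6 libraries held 907210 to 1555431 assigned reads, recovered from the deposited FPKM values (fragments per kilobase of gene, scaled to the size of the library). The members took 6567 to 11314 of these reads. As a share, this was 0.716% in A1, 0.647% in A2, 0.715% in B1, 0.574% in B2 (95% Wilson interval 0.560% to 0.587%), 0.727% in C1 and 0.724% in C2, so that B2 was lowest and the other 5 lay between 0.647% and 0.727%. These intervals reflect only counting error and leave out the spread between pools. The reads carry no molecular identifiers that would mark PCR duplicates, so the intervals may be too narrow even for counting error. The same holds for every interval of a ratio of reads and every limit from a count of 0 below. The 13 protein-coding mRNAs of the mitochondrial genome took 7.18% to 13.1% of reads. The 6 markers of the 2-cell stage summed to 983 to 2550 FPKM and all were detected in every library, as were the 5 oocyte and maternal markers, at 505 to 1091 FPKM in sum. Lists of 12 cumulus and granulosa cell markers and 10 muscle markers summed to at most 3.27 and 3.07 FPKM, with 5 and 4 of their genes at 0 everywhere.

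Of the 101 members, 97 averaged 1 FPKM or more across the 6 libraries and were tested. Those left out were Sdhc (mean 0.525 FPKM), Cox15 (0.188 FPKM), and Cox8b and Ndufa4l2, which had 0 reads in every library. The members just inside this limit were Cox19 at 1.05 FPKM, Cox4i2 at 1.08 FPKM, Atp5l at 1.36 FPKM and Cox6a2 at 1.45 FPKM. At least 3 reads in every library were found for 82 members and at least 10 reads for 70. The mean level was 10 FPKM or more for 59 members and 100 FPKM or more for 13, and 26 were among the 1000 highest protein-coding genes of the embryo.

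Complex I has 7 conserved nuclear-encoded core subunits that carry the electron path from NADH, and their levels were far from equal. Ndufs8, an iron-sulphur subunit, measured 97.6 and 70.6 FPKM in A, 63.2 and 64.8 FPKM in B, and 75.1 and 90.4 FPKM in C, the first library of each pair being named before the second here and below. Ndufv2, of the NADH-oxidising end, measured 47.7 and 62.03 FPKM in A, 73.5 and 43.7 FPKM in B, and 38.1 and 37.7 FPKM in C. Both libraries of C were below all 4 others for Ndufv2, and the pairs overlapped for Ndufs8 in C against A. Ndufs3 measured 16.3 and 14.8 FPKM in A, 13.8 and 17.5 FPKM in B, and 10.2 and 15.9 FPKM in C. The lowest core genes were those for the large iron-sulphur subunit and the FMN-binding subunit. Ndufs1 measured 2.82 and 1.82 FPKM in A, 2.28 and 1.55 FPKM in B, and 2.27 and 2.18 FPKM in C. Ndufv1 measured 5.55 and 1.42 FPKM in A, 0.627 and 2.32 FPKM in B, and 1.79 and 0.437 FPKM in C, from 1 to 14 reads. Ndufs7 is given with the comparison of B and A.

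The accessory subunits, which surround the core and stabilise it, spanned 0 to 349 FPKM, with a median over all 46 complex I genes of 15.7 FPKM. Ndufa2 was highest and measured 373 and 403 FPKM in A, 385 and 192 FPKM in B, and 350 and 393 FPKM in C. Ndufb6 measured 134 and 107 FPKM in A, 136 and 76.2 FPKM in B, and 135 and 123 FPKM in C. In both genes B2 was the lowest library. Ndufa4, which was first assigned to complex I and is now placed with complex IV, measured 89.1 and 53.1 FPKM in A, 122.5 and 45.2 FPKM in B, and 160 and 72.6 FPKM in C, and its pairs overlapped in every comparison. Its hypoxia-linked relative Ndufa4l2 had 0 reads, where a limit of 3 reads allows 1.76 to 3.02 FPKM. The 8 Ndufaf assembly factors had means of 5.08 to 59.3 FPKM, led by Ndufaf5.

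Complex II was the least represented. Sdhd, a membrane anchor, measured 8.93 and 11.99 FPKM in A, 4.50 and 20.4 FPKM in B, and 9.40 and 27.8 FPKM in C. Sdhb, the iron-sulphur subunit, measured 17.0 and 7.59 FPKM in A, 10.9 and 7.48 FPKM in B, and 6.604 and 9.85 FPKM in C. For both genes the pairs overlapped in every comparison. Sdha, the flavoprotein that oxidises succinate, measured 1.21 and 3.04 FPKM in A, 0.958 and 1.83 FPKM in B, and 5.77 and 0.534 FPKM in C, from 2 to 37 reads. Sdhc, the other anchor, measured 0.923 and 0.275 FPKM in A, 1.22 and 0 FPKM in B, and 0.396 and 0.339 FPKM in C, with at most 5 reads.

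In complex III the highest genes were small subunits. Uqcrq measured 153 and 173 FPKM in A, 196 and 117 FPKM in B, and 191 and 137 FPKM in C. Uqcr10 measured 138 and 117 FPKM in A, 150.3 and 85.3 FPKM in B, and 83.7 and 146 FPKM in C. The hinge protein gene Uqcrh measured 88.5 and 35.1 FPKM in A, 99.1 and 52.1 FPKM in B, and 45.2 and 51.2 FPKM in C. For these 3 genes the pairs overlapped in every comparison, except for Uqcrh in C against B. The Rieske iron-sulphur protein gene Uqcrfs1 had a mean of 48.1 FPKM, and the large core proteins Uqcrc2 and Uqcrc1 had means of 16.2 and 3.85 FPKM.

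Complex IV held the most abundant member. Cox8a (ENSMUSG00000035885.4, chromosome 19, 7215158 to 7217616, minus strand, mm10), a small membrane subunit, measured 1058 and 705 FPKM in A, 888 and 538 FPKM in B, and 971 and 738 FPKM in C, with rank 43 among protein-coding genes. The pairs overlapped in every comparison, and B2 was lowest. Cox7a2, the widely expressed form of subunit 7a, measured 327 and 255 FPKM in A, 225 and 124 FPKM in B, and 254 and 347 FPKM in C, with both B libraries below the other 4. Cox7b measured 247 and 113 FPKM in A, 275 and 160 FPKM in B, and 192 and 248 FPKM in C. The 18 genes for subunits had a median level of 57.5 FPKM, against 3.63 FPKM for the 9 assembly factors. Cox14, at a mean of 163 FPKM, was the 1 assembly factor above 10 FPKM. Cox10 and Cox15, the enzymes that make the haem A of complex IV, had means of 9.33 and 0.188 FPKM.

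Complex V combined catalytic and membrane subunits at moderate to high levels. Atp5c1, the central stalk subunit gamma, measured 132 and 139 FPKM in A, 93.0 and 144 FPKM in B, and 143 and 167 FPKM in C. Atp5b, the catalytic beta subunit, measured 72.9 and 70.1 FPKM in A, 80.8 and 159 FPKM in B, and 129 and 80.0 FPKM in C. Atp5f1, of the peripheral stalk, measured 73.5 and 85.6 FPKM in A, 78.4 and 69.9 FPKM in B, and 79.1 and 96.4 FPKM in C. Atp5b was lower in both A libraries than in the other 4, while Atp5f1 differed 1.38-fold between its highest and lowest library. The median over the 16 genes was 35.1 FPKM, from Atp5l at 1.36 to Atp5c1 at 136 FPKM.

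By complex the median of the mean levels was 15.7 FPKM for I, 6.06 for II, 53.5 for III, 9.33 for IV and 35.1 for V. These FPKM values divide by the length deposited in the table, which for 86 of the 101 members equals the union of all exons annotated in GENCODE M21. That length was a median of 1.43 times the length of the principal transcript, more than 2 times for 28 members and up to 11.8 times for Atp5l. Levels were then taken per kilobase of principal transcript, with all reads of a gene counted on it. How many of them came from other transcripts of the gene was not tested. The medians became 27.7 for I, 8.495 for II, 66.5 for III, 17.3 for IV and 88.5 for V. Complex V thus moved above complex III. Atp5l went from 1.36 FPKM to 16.1, Cox6c from 25.7 to 182, and Ndufb7 from 5.24 to 38.1 per kilobase. Cox8a stayed highest at 809, while Ndufs1 went from 2.15 to 6.55. Complex II had the lowest median on both scales.

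**Figure D1:**
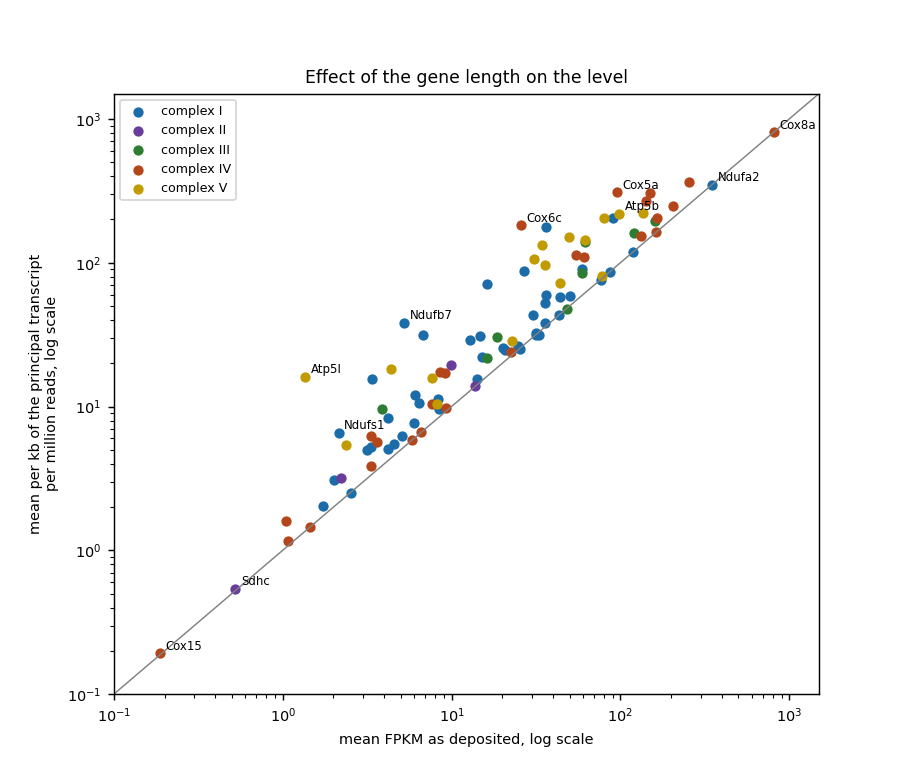
Mean level of each member as deposited (x axis, FPKM, log scale) against the mean per kilobase of its principal transcript (y axis, log scale), coloured by complex, without the 2 members at 0. The line marks equal values, and Atp5l, Ndufb7 and Cox6c stand farthest above it.

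Genes for alternative forms of 1 subunit were compared next, since their reads can be told apart from each other. Within each of the 8 groups 0% of the 50-base words of a gene's exons were found in another gene of the group. Words shared with genes outside the group reached 38.3% for Atp5g2, 13.8% for Cox7a2l and 11.1% for Atp5g1, against 0% for Cox6b1, Cox6b2 and Cox8a. In 6 groups the widely expressed form held nearly all of the signal. Cox4i1 took 97.7% to 100% of the FPKM of Cox4i1 and Cox4i2 together. Cox4i2, the lung-enriched form, measured 1.27 and 2.27 FPKM in A, 0 and 2.12 FPKM in B, and 0.816 and 0 FPKM in C, never more than 2 reads. Cox6a1 took 97.6% to 100%, and the heart and muscle form Cox6a2 measured 4.41 and 0 FPKM in A, 0 and 1.23 FPKM in B, and 1.42 and 1.62 FPKM in C, with at most 3 reads. The counts of Cox4i2 and Cox6a2 did not exceed what a count of 0 allows. Cox7a2 took 84.6% to 96.0% of its group. Cox7a2l, whose product links complexes III and IV into supercomplexes, measured 26.6 and 33.1 FPKM in A, 17.2 and 17.9 FPKM in B, and 27.2 and 12.5 FPKM in C. The muscle form Cox7a1 measured 9.34 and 8.36 FPKM in A, 11.8 and 4.69 FPKM in B, and 9.61 and 2.06 FPKM in C, from 1 to 8 reads. Cox8a took 98.3% to 99.6% of its group. Cox8b, the heart and muscle form, had 0 reads, which allows up to 5.36 to 9.19 FPKM. The testis form Cox8c measured 4.37 and 5.86 FPKM in A, 15.5 and 3.65 FPKM in B, and 5.62 and 4.81 FPKM in C, from 2 to 9 reads. Cox7b took 90.7% to 99.5% beside its testis form Cox7b2, and Ndufa4 took 100% beside Ndufa4l2.

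Subunit 6b was the exception, since both of its genes were abundant. Cox6b1 (ENSMUSG00000036751.7, chromosome 7, 30616861 to 30626151, minus strand, mm10), the form found in most tissues, measured 119 and 139 FPKM in A, 167 and 108 FPKM in B, and 103 and 162 FPKM in C. Cox6b2 (ENSMUSG00000051811.14, chromosome 7, 4751792 to 4753094, minus strand, mm10), known as the testis form, measured 222 and 96.1 FPKM in A, 140 and 50.6 FPKM in B, and 208 and 138 FPKM in C. Cox6b2 rested on 67 to 359 reads, all of them whole. Its share of the pair of genes was 65.0% and 40.9% in A, 45.6% and 31.9% in B, and 67.0% and 46.1% in C. Per kilobase of principal transcript its share was higher, 43.6% in B2 to 77.0% in C1. As a share of FPKM it overlapped between C and A and between B and A, and both C libraries were above both B libraries. Cox6b2 also had the widest range among the 70 members with at least 10 reads in every library, 4.39-fold. Of 12 sperm and spermatid markers, 4 (Prm1, Odf1, Tnp2 and Smcp) were at 0 in every library. The list summed to 39.9 to 43.8 FPKM in A, 33.5 to 53.2 in B and 34.2 to 43.8 in C, most of it from Ldhc (mean 36.0 FPKM) and Odf2 (mean 3.13 FPKM). The part of sperm RNA in the Cox6b2 level was not tested.

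The 3 subunit c genes Atp5g1, Atp5g2 and Atp5g3, which encode the same mature protein behind different import signals, were the other mixed group. Atp5g1 measured 68.8 and 83.8 FPKM in A, 76.8 and 55.2 FPKM in B, and 91.3 and 88.5 FPKM in C. Atp5g3 (ENSMUSG00000018770.9, chromosome 2, 73908447 to 73911326, minus strand, mm10) measured 35.3 and 44.3 FPKM in A, 88.8 and 53.7 FPKM in B, and 41.9 and 32.3 FPKM in C. Atp5g2 measured 2.19 and 1.78 FPKM in A, 0.864 and 1.33 FPKM in B, and 3.65 and 4.39 FPKM in C. Atp5g3 therefore made up 53.4% and 48.7% of subunit c signal in B, against 33.2% and 34.1% in A and 30.6% and 25.8% in C, and both B libraries were above the other 4. Per kilobase of principal transcript Atp5g3 led in every library, at 49.1% to 76.8%, so the order of Atp5g1 and Atp5g3 depends on the length used, while B remained above A and C.

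**Figure D2:**
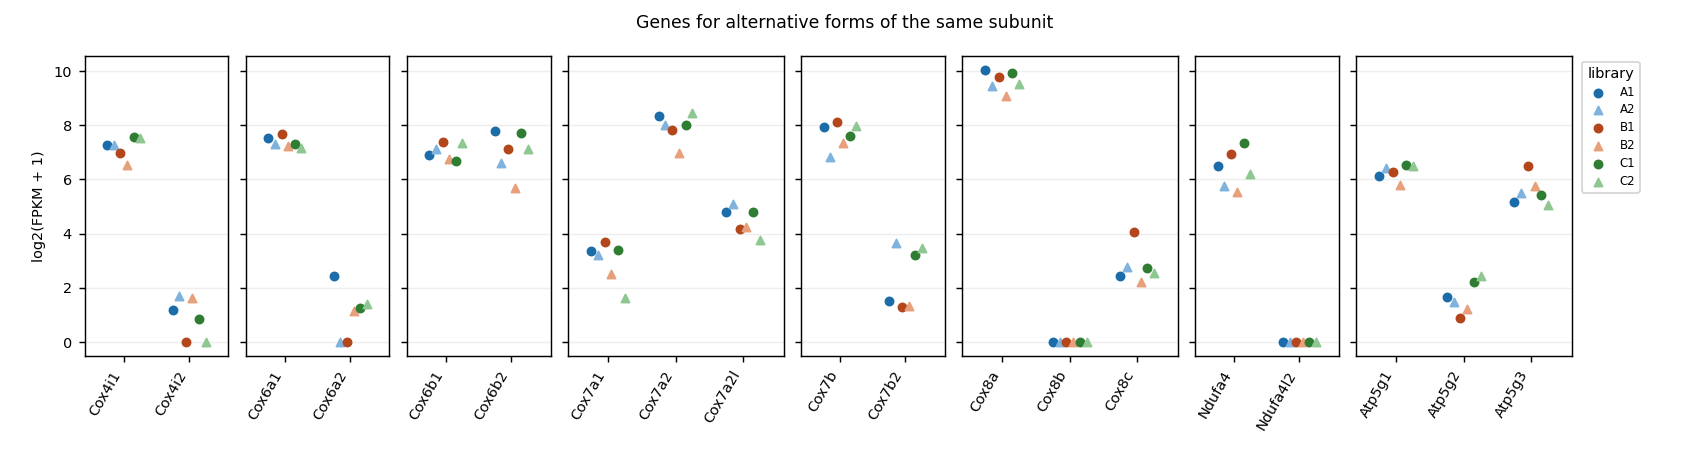
Level of each gene of the 8 groups of alternative subunit genes as log2(FPKM + 1), 1 point per library, circles for replicate 1 and triangles for replicate 2. Cox6b1 and Cox6b2 lie at like heights, whereas Cox8b and Ndufa4l2 lie at 0 and Cox4i2 and Cox6a2 rest on at most 3 reads.

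Promoter sequence was read for the members that the RefSeq table of build GRCm38.p6 holds, 250 bases before to 50 after the annotated start, because nuclear respiratory genes are textbook targets of NRF1, of the ETS factor GABP (also named NRF2) and of YY1. Of the members, 81 had an entry. The NRF1 palindrome (GCGCA, any base, then GCGC) was found on either strand in 18 of 81 (22.2%), against 4.60% of all 32851 promoters in the table. The letters CCGGAAGT (ETS) were found in 9 (11.1%), against 3.89%, and AAGATGGC (YY1) in 11 (13.6%), against 2.75%. At least 1 of the 3 was present in 35 members (43.2%), against 10.4% of all promoters. Each member entered with 1 promoter. The set of all promoters was not matched to the members on expression or on G and C content, so the part of these in the difference was not tested. The NRF1 palindrome was held by 9 of 40 complex I and 5 of 13 complex V genes but 1 of 20 complex IV genes, and ETS letters by 5 of 20 complex IV genes. A match describes letters in this window and is not a measured binding site. The promoters of Cox8a and Cox6a1 are shown as the most abundant gene and as the 1 complex IV gene with the NRF1 palindrome, followed by those of Cox6b1 and Cox6b2, which hold no match. Each is written 5′ to 3′ along the minus strand on which the gene lies, with matches in capitals. In Cox8a (chr19:7217567-7217866) the capitals mark CCGGAAGT read on the other strand, found in 2 places, and in Cox6a1 (chr5:115348909-115349208) they mark the NRF1 palindrome in 2 places. The windows of Cox6b1 and Cox6b2 are chr7:30626065-30626364 and chr7:4753045-4753344.
Cox8a: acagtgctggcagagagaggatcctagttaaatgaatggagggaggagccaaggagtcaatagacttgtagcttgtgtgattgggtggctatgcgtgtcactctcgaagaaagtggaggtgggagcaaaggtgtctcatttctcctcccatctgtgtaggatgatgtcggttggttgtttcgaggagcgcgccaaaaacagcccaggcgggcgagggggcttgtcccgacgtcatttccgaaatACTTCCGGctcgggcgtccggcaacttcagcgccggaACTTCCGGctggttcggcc
Cox6a1: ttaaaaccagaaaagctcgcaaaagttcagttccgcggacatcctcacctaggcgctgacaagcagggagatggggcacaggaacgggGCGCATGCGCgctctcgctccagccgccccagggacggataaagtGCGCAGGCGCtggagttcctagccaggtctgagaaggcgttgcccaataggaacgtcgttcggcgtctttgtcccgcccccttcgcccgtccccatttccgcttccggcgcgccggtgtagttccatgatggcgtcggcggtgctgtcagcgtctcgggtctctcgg
Cox6b1: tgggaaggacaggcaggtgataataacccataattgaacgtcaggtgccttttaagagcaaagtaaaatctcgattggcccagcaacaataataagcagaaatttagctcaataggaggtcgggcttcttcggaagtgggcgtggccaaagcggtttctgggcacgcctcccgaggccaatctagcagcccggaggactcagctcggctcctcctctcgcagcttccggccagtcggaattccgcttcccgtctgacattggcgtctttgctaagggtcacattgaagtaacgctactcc
Cox6b2: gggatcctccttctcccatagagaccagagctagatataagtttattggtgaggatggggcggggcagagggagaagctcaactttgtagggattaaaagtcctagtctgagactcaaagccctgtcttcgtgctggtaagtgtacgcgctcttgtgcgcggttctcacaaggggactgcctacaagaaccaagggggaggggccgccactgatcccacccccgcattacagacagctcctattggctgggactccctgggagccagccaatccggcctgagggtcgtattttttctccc

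The spread of the members between libraries was described by the ratio of the highest to the lowest library. Among the 70 members with at least 10 reads everywhere, the highest library was a median of 2.04 times the lowest, against 2.00 times for 5158 other protein-coding genes with the same minimum, which were not matched on depth above it. The steadiest were Ndufaf8 (1.33), Atp5f1 (1.38) and Uqcrc2 (1.39), and besides Cox6b2 the widest were the copper chaperone gene Cox17 (4.21), Uqcr11 (4.20) and Cox10 (4.03). Across the 97 tested genes the libraries correlated at r = 0.929 to 0.952, a description over genes that share libraries, and the 3 values within pairs (0.929 to 0.949) were not above the rest.

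Library B2 stood apart in these genes. It was the lowest of the 6 libraries for 33 of the 97 tested members (34.0%), against 15.4% of all 13443 tested genes, while A1 was lowest for 5 members (5.15%). Relative to each gene's mean log2(FPKM + 1) over the 6 libraries, the members had a median of -0.19 in B2, against 0.11 in A1, -0.01 in A2, 0.09 in B1, 0.06 in C1 and 0.11 in C2. Over all tested genes these medians lay between -0.08 and 0.12, and the value in B2 was 0.03. In these pooled embryos a low value cannot separate less of a transcript per cell from more RNA of other kinds or from a different make-up of the pool.

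The low values in B2 were not shared evenly by role. The 17 tested complex IV subunits had a median of -0.34, with 8 of them lowest in B2, the 30 accessory subunits of complex I had -0.26 with 12 lowest, and the 7 core subunits had -0.23 with 2 lowest. In complex V the median was -0.21 with 7 of 16 lowest, in complex III -0.05 with 2 of 8. The assembly factors were not low, at -0.04 with 0 of 8 lowest for complex I and 0.11 with 2 of 8 for complex IV. Level and length moved with this pattern. Members below 1 kilobase had a median of -0.46 in B2 (n = 27) and those of 2 kilobases or more -0.13 (n = 38), whereas other protein-coding genes had -0.08 (n = 556) and 0.09 (n = 6818). At 100 FPKM or more the values were -0.45 for 13 members and -0.06 for 503 other genes, and the shares lowest in B2 were 53.8% and 27.6%. Among genes of at least 10 FPKM and under 1500 bases, B2 was lowest for 40.6% of 32 members and 27.6% of 641 others. The 83 ribosomal protein genes, also short and abundant, had -0.21 in B2 and -0.17 in A1. B2 further had 41.4 reads on the Y chromosome, against 171 to 411 in the other libraries. The 6 markers of the 2-cell stage summed to 2249 and 2550 in B, 1507 and 983 in A, and 1637 and 1165 FPKM in C, highest in B2. The part of these differences in the low member values was not tested.

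**Figure D3:**
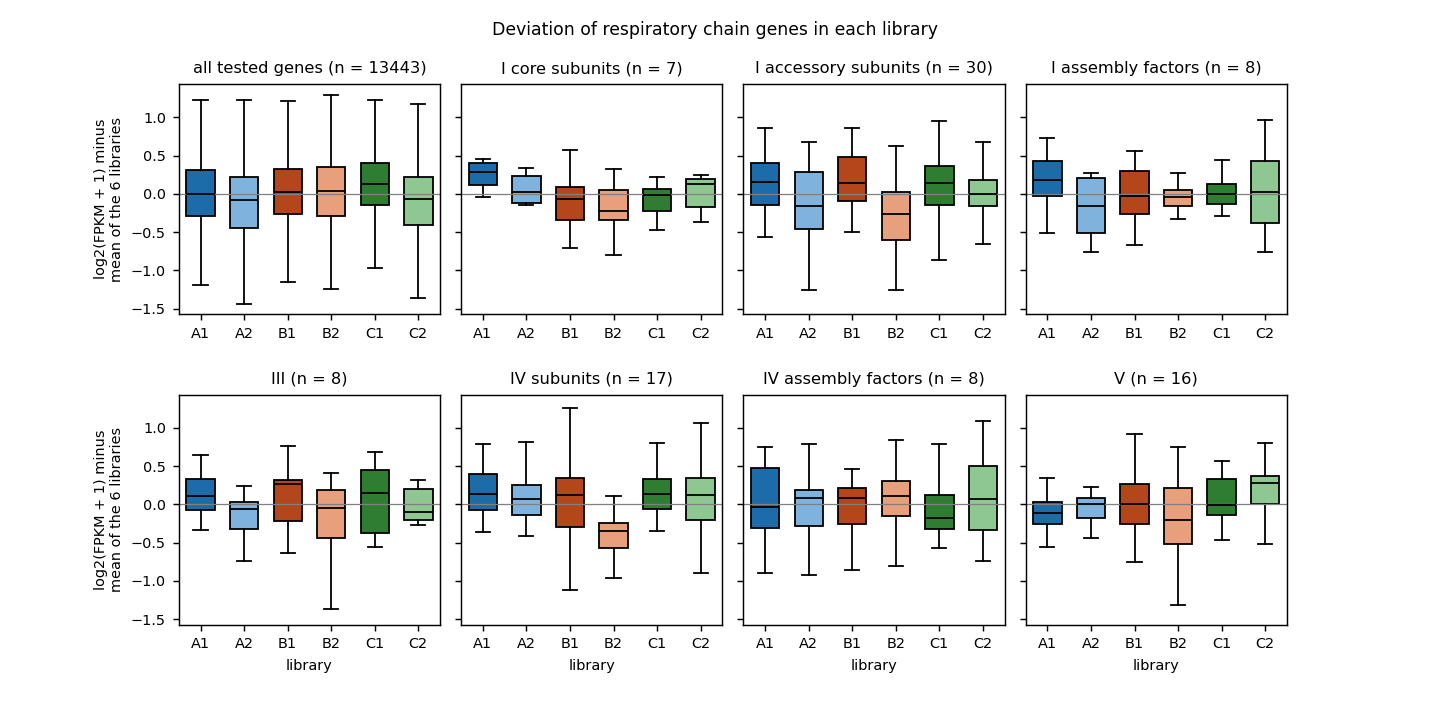
Deviation of log2(FPKM + 1) from the mean of the 6 libraries for all tested genes and for groups of members by role; the 3 tested complex II genes are not drawn. Boxes span the quartiles with the median as a line, whiskers reach 1.5 times the interquartile range, and points beyond are not drawn. The box for complex IV subunits in B2 lies below 0 (median -0.34), and that for complex IV assembly factors does not (0.11).

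Among the genes outside the rule whose levels ran most like those of the 59 members with a mean of 10 FPKM or more, by Pearson r over the 6 libraries, were Cetn3 (r = 0.998), Dmtf1 (0.989), Gm7879 (0.9852) and Lrcol1 (0.984), found among 13346 genes. Cetn3, a centrin gene, measured 41.4 and 30.3 FPKM in A, 39.4 and 19.4 FPKM in B, and 37.6 and 46.0 FPKM in C. Like the average of the members, it was lowest in B2 and second lowest in A2. Such a likeness follows from picking the highest r among 13346 genes over only 6 libraries, and it is no separate result.

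Pair C against pair B compares actinR62D-HA-NLS with actinWT-HA-NLS if the annotation holds, or the non-injected control with R62D if the titles hold. More members were higher than lower in C: 60 of 97 had a coefficient above 0, where the share over all tested genes was 49.9%, and the median log2 fold change was 0.16 against 0 over all genes. Pairs did not overlap for 19 members higher in C and 11 lower, against a background of 15.5% and 14.8% of genes (19.6% and 11.3% of the members). None passed the test: limma on log2(FPKM + 1) with Benjamini-Hochberg adjustment over all genes called 0 members, as it called 0% of genes higher and 0% lower. At an unadjusted p below 0.05 there were 4 members higher and 1 lower, with 1.64% and 2.22% of all genes. The median depended on B2. It was -0.026 without B2 and 0.29 without B1, and with B2 left out 47 of 97 members were above 0. The sum of the 2-cell-stage markers was higher in both B libraries (2249 and 2550 FPKM) than in C (1637 and 1165 FPKM). Its part in the members' values was not tested.

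Ndufc2, an accessory subunit of the complex I membrane arm, measured 18.8 and 24.9 FPKM in C against 5.24 and 7.77 FPKM in B, and 7.96 and 20.2 FPKM in A. Its log2 fold change was 1.61 ± 0.48 (SE), from 5 to 22 reads per library (limma, adjusted p = 1). Cox4i1, the main form of complex IV subunit 4, measured 186 and 186 in C, 125.5 and 91.3 in B, and 154 and 156 FPKM in A. The log2 fold change was 0.79 ± 0.28 (SE), and the libraries of A lay between those of B and C. Cox7b2 measured 8.30 and 10.2 in C, 1.46 and 1.54 in B, and 1.84 and 11.6 FPKM in A. It had 1 read in each B library and 12 in C, so that the ratio of reads, scaled to depth, was 5.99 with an exact 95% interval of 1.33 to 55.1. That interval leaves out the spread between pools, and Cox7b2 was picked by its p in this same comparison. Library A1 was near B and A2 above C. Atp5g2 and Atp5g3 went opposite ways in C against B, with log2 fold changes of 1.26 ± 0.43 and -0.89 ± 0.35 (SE). Atp5g2 rested on 1.83 to 9.50 reads, and 38.3% of its 50-base words were also found in other genes, mostly the pseudogene Gm10175, so its value is uncertain. Atp5g3 shared 0% of its words and rested on 64 to 245 reads. The adjusted p was 1 for each of these genes (limma).

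Pair C against pair A compares actinR62D-HA-NLS with non-injected embryos if the annotation holds, or the non-injected control with Wt if the titles hold. The members as a group leaned neither way: 52 of 97 had a coefficient above 0, against 56.5% of all genes, and the median was 0.03 against 0.06, or -0.02 after median scaling. Pairs did not overlap for 18 members higher and 10 lower in C, with a background of 16.5% and 10.4%. Limma called 0 members and 0% of genes in either direction. At an unadjusted p below 0.05 there was 1 member higher and 0 lower, with 1.67% and 1.34% of genes. This was Ndufa1, an X-linked accessory subunit of complex I, at 131 and 84.2 in C, 66.8 and 52.3 in A, and 98.4 and 85.9 FPKM in B. Its log2 fold change was 0.82 ± 0.33 (SE, limma adjusted p = 1), and both A libraries were below the other 4. In complex V 13 of 16 genes were above 0 with a median of 0.19, and 7 were higher in both C libraries than in both A libraries, among them Atp5b at 0.50, Atp5e, a small subunit of the central stalk, at 0.65 and Atp5a1, the alpha subunit, at 0.27. The 45 tested genes of complex I had a median of -0.02 and the 7 core genes -0.26, with 6 of 7 below 0.

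Pair B against pair A compares actinWT-HA-NLS with non-injected embryos if the annotation holds, or R62D with Wt if the titles hold. Here more members were lower than higher in B: 37 of 97 were above 0, against 55.1% of all genes, and the median was -0.16 against 0.07. Pairs did not overlap for 12 members higher and 17 lower in B, with a background of 18.8% and 12.8%. Limma called 0 members and 0% of genes in either direction, and at an unadjusted p below 0.05 there were 2 members higher and 4 lower, with 2.77% and 1.79% of genes. The complex IV subunits had 13 of 17 genes below 0 and a median of -0.32, with 6 not overlapping and lower. The core genes of complex I had a median of -0.37, while the assembly factors of complexes I and IV had 0.00 and 0.09. The sum of the 2-cell-stage markers was higher in both B libraries (2249 and 2550 FPKM) than in A (1507 and 983 FPKM), and its part in the members' values was not tested. Without B2 the median over the members was -0.010 and 45 of 97 were above 0.

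All 6 members with an unadjusted p below 0.05 belong to complex I, which holds 45 of the 97 tested members. Ndufa6, an accessory subunit of the matrix arm, measured 22.6 and 22.4 in B, 48.2 and 44.7 in A, and 35.6 and 25.6 FPKM in C. Its log2 fold change was -1.01 ± 0.31 (SE), with B1 and B2 below all other libraries. Ndufs7, a core iron-sulphur subunit, measured 8.97 and 9.26 in B, 17.5 and 15.6 in A, and 11.6 and 14.1 FPKM in C, a log2 fold change of -0.79 ± 0.32 (SE). Ndufb7 measured 3.15 and 2.22 in B, 7.30 and 6.53 in A, and 3.98 and 8.29 FPKM in C, a log2 fold change of -1.11 ± 0.43 (SE). In these 3 genes both B libraries were below all 4 libraries of A and C. Ndufb11, an X-linked accessory subunit of the membrane arm, went the other way, at 44.0 and 41.0 in B, 22.6 and 21.7 in A, and 26.9 and 32.8 FPKM in C. Its log2 fold change was 0.91 ± 0.29 (SE), with both B libraries above the rest, and 17.5% of its 50-base words were shared with other genes.

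The remaining pair of genes rested on few reads. Ndufa8, an accessory subunit, measured 1.84 and 0 in B, 4.65 and 3.12 in A, and 2.99 and 2.56 FPKM in C, that is 2 reads in B and 7 in A. The log2 fold change was -1.52 ± 0.59 (SE), and the ratio of A to B in reads, scaled to depth, was 4.06 with an exact 95% interval of 0.774 to 40.1. Ndufa5, an accessory subunit of the matrix arm, measured 5.36 and 0.811 in B, 0 and 0 in A, and 3.12 and 1.07 FPKM in C. A count of 0 allows up to 3 reads in each A library (2.91 and 2.60 FPKM), which is above the value in B2 (1 read), so no fold is given. The fitted 1.76 ± 0.72 (SE) depends on the added 1 FPKM. For all 6 genes the adjusted p was 0.991 (limma).

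**Figure D4:**
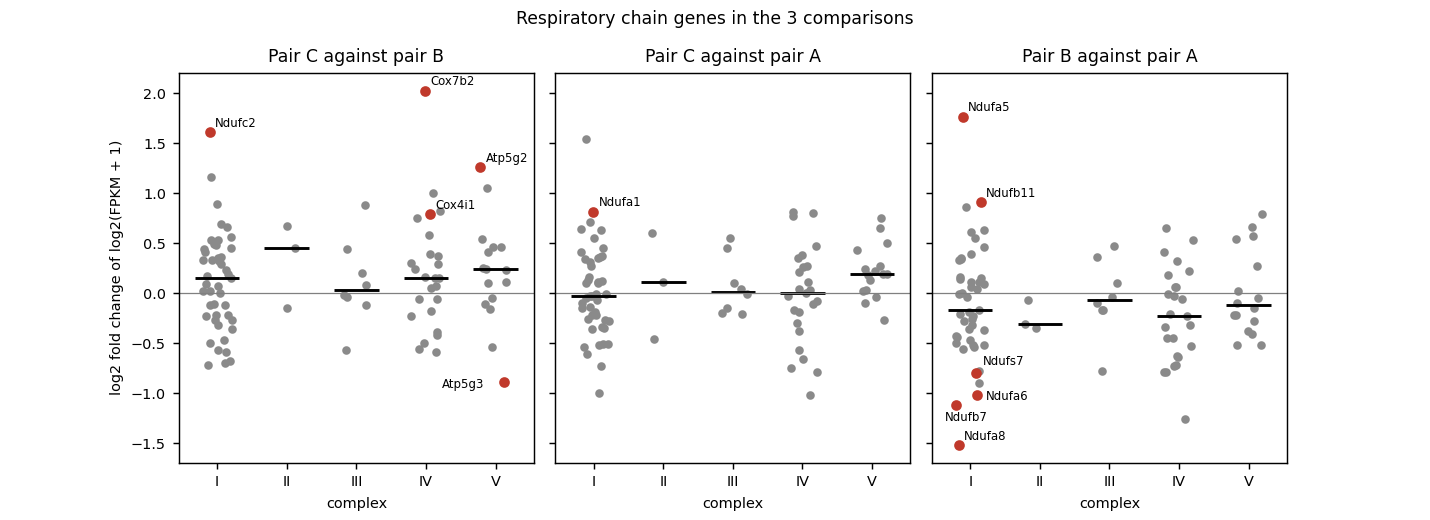
Log2 fold change of each of the 97 tested members in the 3 comparisons, by complex; black bars are medians and red points have an unadjusted p below 0.05. None passed after adjustment. Medians of the complexes lie mostly above 0 in C against B and below 0 in B against A.

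The 3 comparisons share libraries, so they are not independent of each other: each pair enters 2 of them. Atp5g3 had log2 fold changes of -0.89 in C against B, -0.10 in C against A and 0.79 in B against A. The complex V median was 0.24, 0.19 and -0.12 in the same order, and that of the complex IV subunits 0.15, 0.03 and -0.32. For comparison, the 13 mitochondrial mRNAs had medians of -0.01, -0.36 and -0.37.

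Genes that work beside the chain were taken from a list of 67 electron carriers, assembly factors, coenzyme Q enzymes and regulators, of which 66 were in the table and 50 were tested. Usmg5 (mean 284 FPKM), a small protein of the ATP synthase dimer, Gabpa (219 FPKM), the DNA-binding subunit of GABP, and Uqcc3 (207 FPKM) and Higd2a (178 FPKM), assembly factors of complexes III and IV, were the highest of the list, each below Cox8a and Ndufa2. Cytochrome c (Cycs) had a mean of 62.7 FPKM and cytochrome c1 (Cyc1) 11.9 FPKM. The regulator Nrf1 measured 2.38 and 4.00 FPKM in A, 3.31 and 4.48 FPKM in B, and 4.94 and 4.61 FPKM in C. The coactivator gene Ppargc1a, a driver of mitochondrial gene expression in adult tissues, had a mean of 0.0212 FPKM. The limma test with adjustment over all genes called 0 of the 50 in each comparison. At an unadjusted p below 0.05 there were 0 in C against B, and 1 higher and 1 lower of the 50 in each of the other comparisons. The shares over all genes were 1.67% higher and 1.34% lower in C against A, and 2.77% and 1.79% in B against A. The higher gene was Bcs1l, which inserts the Rieske protein into complex III, at 1.33 ± 0.44 (SE) in C against A and 1.19 ± 0.44 in B against A. Both values rest on the same A libraries, where Bcs1l had 2 and 4.5 reads, against 8.5 to 16 reads in the other 4 libraries. The lower one was Tfb1m, a methyltransferase of mitochondrial ribosomal RNA, at -1.46 ± 0.40 and -1.35 ± 0.40 (SE). Tfb1m had 10.5 and 12.5 reads in A, and 2 to 6.5 reads in the other 4 libraries.

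Some member values are uncertain because genes overlap or have copies. Of the 101 members, 42 shared no 50-base word with another gene and 11 shared more than 20% of theirs, led by Cox20 (84.8%, mostly with the neighbouring Hnrnpu), Ndufaf2 (64.1%), Cox16 (54.2%), Cox11 (43.2%) and Atp5o (41.6%). Reads that fell on several genes were counted as fractions, which touched 72 members in at least 1 library.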

How the data were processed

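Per the submitters' processing notes, reads were handled with Trimmomatic, Trim Galore, cutadapt, STAR and featureCounts on mm10; the sources used here give no versions, annotation or strand setting. Per the labels' protocols, spike-in RNA was added and cDNA was amplified with 13 PCR cycles before Nextera XT tagmentation. The authors deposited FPKM values of 53023 genes for the 6 libraries; the table has 0 spike-in rows. Reads were recovered from FPKM times length, scaled in each library by taking the commonest value above 0 as a single read. The depth of each library and all read counts rest on this step. Of the values above 0, 55.6% to 57.9% were whole reads within 0.001 read.

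Values were taken as log2(FPKM + 1). The 13443 genes that averaged 1 FPKM or more were fitted with limma 3.58.1 in R 4.3.3, with 1 mean per pair over all 6 libraries and a variance trend, adjusted by the Benjamini-Hochberg method over all of them at 0.05. This scale understates changes of low genes. Nothing in the labels ties the pools of a pair to different matings or days, and p-values cover only the spread among the pools. The script was tested on simulated data. The members, companion genes and marker lists were chosen with earlier results of these data known. Values in all libraries are given for the 3 highest members per complex, members with an unadjusted p below 0.05 (at most 10 per comparison), groups of alternative forms, and the succinate dehydrogenase and complex I core genes. Companion genes are named at an unadjusted p below 0.05 and likeness by the 5 highest r; companion levels were picked after their values were seen. Some genes under these rules are not reported here. Alternatives were other filters, pseudocounts, scalings and models, the replicate number as a block, leaving out each library, and, added after seeing the data, the length of the principal transcript.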

Additional observations from a re-analysis of the deposited data

How the results depend on the processing

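Under 16 alternative settings the number of members that passed the adjusted threshold was 0 in each comparison, where limma gave unadjusted counts of 4 higher and 1 lower (C against B), 1 and 0 (C against A) and 2 and 4 (B against A). All 189 values of the named members under those settings kept their direction. This was largely fixed beforehand, because these members were picked by p in the same data. Their compared pairs also do not overlap, so leaving out 1 library cannot reverse the direction. Leaving out 1 library at a time moved the members' median log2 fold change from -0.026 (without B2) to 0.29 (without B1) in C against B, from -0.06 to 0.10 in C against A, and from -0.23 (without B1) to -0.010 (without B2) in B against A. Leaving out a library lets the lone sample of its pair borrow its spread from the other pairs. After median scaling the medians were 0.20, -0.02 and -0.25, and after quantile normalization 0.19, -0.01 and -0.24, so the small median in C against A changed sign. A pseudocount of 0.1 called 1 gene in C against B, which was not a member.

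With the replicate number as a block the counts of members called were again 0. Those at an unadjusted p below 0.05 became 5 and 1, 2 and 0, and 2 and 6. The share of all genes at that p rose as well, to 4.99%, 3.70% and 5.39%, from 3.85%, 3.01% and 4.57% in the main fit. Deviations of libraries with the same number correlated at 0.10 (A and B), 0.20 (A and C) and 0.00 (B and C), so the numbers were not taken to pair the pools. Per kilobase of principal transcript the median level was 27.7 in complex I, 17.3 in complex IV and 88.5 in complex V.

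A median standard error of 0.41 on the log2 scale, with 2 libraries in each pair, limits detection. Of the 97 tested members 15 had fewer than 3 reads in at least 1 library.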

Other observations

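The table also lists 8 processed pseudogenes named after respiratory chain genes, which the rule left out as not protein-coding. Ndufab1-ps had a mean of 44.9 FPKM, from 26.1 FPKM in A2 to 56.9 FPKM in B1. Its parent Ndufab1, which encodes the mitochondrial acyl carrier protein, had a mean of 6.09 FPKM, from 3.47 FPKM in A2 to 9.47 FPKM in B1. Both were lowest in A2 and highest in B1. The pseudogene rested on 13.7 to 37.7 reads, with fractional reads shared with other genes, and a length of 468 bases. Ndufab1 rested on more reads, 26.7 to 82.4, over a length of 6883 bases. Its mean was 12.0 per kilobase of principal transcript. The reads of Ndufab1 were also fractional in every library. Of its 50-base words, 9.27% were found in other genes, 129 in number, led by Gm4459 (5.37%). The part shared with the pseudogene alone was not worked out, so the likeness of Ndufab1 and Ndufab1-ps may not be independent. Atp5l2-ps measured 3.84 FPKM in B2 to 15.7 FPKM in C2, and rested on 1.43 to 6.39 reads. The gene Atp5l measured 0.712 to 2.06 FPKM as deposited, from 5.13 to 16.8 reads, but 8.44 to 24.5 per kilobase of principal transcript, which was above Atp5l2-ps in every library. Atp5l-ps1 and Atp5l-ps2 had means of 3.68 and 2.30 FPKM. The other 4 had means of at most 1.72 FPKM.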
